A study of Mus musculus with 8 samples.

Results

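The opioid peptide and receptor genes comprise 7 of the 19884 genes in the count table. They are the precursor genes Penk, Pdyn and Pnoc and the receptor genes Oprm1, Oprk1, Oprd1 and Oprl1, found by their symbols. Each matched 1 entry. RNA was sequenced from whole brain (4 libraries) and whole uterus (4 libraries) of wild-type C57BL/6J females aged 6 to 10 weeks. The mice had been mated with fertile males, received no treatment, and were on gestation day 4, counted from the plug as day 1. Pregnancy was checked by blastocysts in the uterine flush, and the labels do not say whether brain and uterus came from the same animals. No other stage or non-pregnant state was measured, so the values describe the organs at this stage and not a change with pregnancy.

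Opioid peptides are cut from larger precursor proteins. Penk encodes proenkephalin, the source of Met- and Leu-enkephalin, Pdyn encodes prodynorphin, the source of dynorphins and neoendorphins, and Pnoc encodes prepronociceptin, the source of nociceptin. Oprm1, Oprk1 and Oprd1 encode the mu, kappa and delta receptors, and Oprl1 the nociceptin receptor, all of which couple to inhibitory G proteins. In the brain the system is known for its part in pain, reward and stress.

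The precursor genes differ in how many peptides their coding sequence holds, which is shown here because Penk alone among them was abundant in uterus. The opioid core (tyrosine, glycine, glycine, phenylalanine) was searched as its codons, in frame, in the longest annotated coding sequence of each gene (GENCODE M21, GRCm38). It occurred 7 times in Penk (coding length 807 nt), within chr4:4133842-4134354 on the minus strand, all in exon 2. In each line below the 12 capitals mark the core codons, preceded by 6 bases that encode a pair of basic residues, where processing enzymes cut.
Penk core 1: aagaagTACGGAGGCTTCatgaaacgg
Penk core 2: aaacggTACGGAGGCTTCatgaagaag
Penk core 3: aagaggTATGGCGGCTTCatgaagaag
Penk core 4: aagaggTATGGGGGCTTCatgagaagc
Penk core 5: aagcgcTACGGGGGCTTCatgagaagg
Penk core 6: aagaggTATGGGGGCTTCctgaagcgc
Penk core 7: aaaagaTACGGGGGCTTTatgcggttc

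In 6 of the 7 Penk cores the next codon, atg, encodes methionine, and in core 6 the next codon, ctg, encodes leucine. Pdyn (coding length 747 nt) held 3 cores in exon 4, within chr2:129688067-129688258 on the minus strand, and a leucine codon followed each of them.
Pdyn core 1: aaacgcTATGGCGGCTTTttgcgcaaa
Pdyn core 2: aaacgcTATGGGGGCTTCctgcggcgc
Pdyn core 3: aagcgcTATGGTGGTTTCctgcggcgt

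Pnoc (coding length 639 nt) held 0 copies of that core and 1 of the nociceptin form, whose leading codon encodes phenylalanine, in exon 3 at chr14:65404872-65404898 on the minus strand.
Pnoc core 1: aaaaggTTTGGGGGCTTCaccggggcc

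Of 21715 genes with an in-frame coding sequence, 71 (0.327%) held the opioid core in frame at least once. Only 4 held it at least 2 times: Penk, Pdyn and the keratin-associated protein genes Krtap19-2 (5 copies) and Krtap19-4 (3 copies). The match describes the letters and says nothing of which peptides were made.

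Library totals were 35394603 to 47790178 counts. Values are CPM, the usual depth-normalised count, on library sizes scaled by TMM (trimmed mean of M values, a scaling for library composition). A total of 3 counts, the limit that a count of 0 allows, is 0.0692 to 0.0810 CPM in a single library. This limit and the intervals below cover counting error only. Hoxa10, a uterine HOX gene, was 324 to 406 CPM in uterus and at most 0.0473 in brain, and Snap25, a synaptic gene, was 2323 to 2477 CPM in brain and 0.227 to 1.38 in uterus. Uterus library 4 held the highest Snap25 of the uterine libraries, and brain library 1 the highest sum of 10 leukocyte marker entries among brain libraries, at 49.4 CPM against 28.4 to 29.2. A fit without both of these libraries, chosen after their values were seen, left all 7 opioid genes higher in brain.

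Penk was abundant in both organs, while the other 6 opioid genes ranged from 1.03 (Oprm1) to 58.2 CPM (Oprl1) in brain and were near or at 0 in uterus. All 7 passed the filter on low counts, which brain alone was enough to pass, and all 7 were higher in brain (edgeR quasi-likelihood test, adjusted p under 0.05). Of all 16074 genes tested, 43.6% were called higher in brain (7001 genes, against 6988 higher in uterus). With library sizes alone the counts were 5949 and 8179, and with upper-quartile scaling 5966 and 8182. Against a 2-fold change 6 of the 7 passed, all but Penk, where 25.8% of all genes tested passed toward brain. The median log2 fold change of the 7 genes, uterus over brain, was -8.16, against 0.012 over all genes tested. In whole organs, fewer cells of a type and less RNA per cell cannot be told apart.

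Penk (ENSMUSG00000045573, chromosome 4, 4133531 to 4138819, minus strand) was 160.0, 174, 153 and 155 CPM in brain libraries 1 to 4 and 118, 130.4, 85.6 and 88.8 CPM in uterus libraries 1 to 4. On this scale each brain library lay above each uterine library, as for 42.0% of all genes tested, and uterus libraries 1 and 2 lay above 3 and 4. The mean was 160.4 ± 9.58 CPM in brain and 106 ± 22.0 in uterus (SD, n = 4 each), so the uterine level was 65.9% of the brain level. The log2 fold change was -0.60 ± 0.13 (SE; edgeR adjusted p = 0.0014).

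The size of the Penk difference depended on the scaling. With library totals alone the means were 147 ± 8.27 CPM in brain and 116 ± 24.8 in uterus, 78.8% of brain, and the organs overlapped, since uterus library 2 at 145 CPM stood above brain libraries 3 and 4 at 139.6 and 141. The log2 fold change was then -0.34 (edgeR adjusted p = 0.032), with the median of all genes at 0.27. Per length of annotated exons, Penk reached 98.1 ± 5.86 CPM per kilobase (RPKM) in brain and 64.7 ± 13.5 in uterus. By this level it stood above 97.9% of 16055 genes in brain and above 96.6% in uterus. An antisense noncoding gene, A830012C17Rik, overlaps 233 nt of Penk exons, and the strand setting of the counting is not given in the sources used here.

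**Figure D1:**
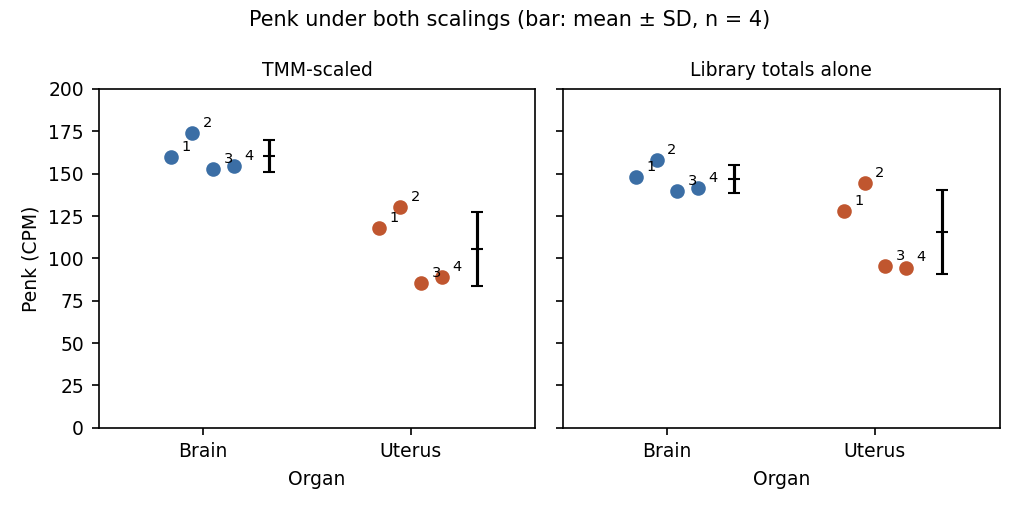
Penk level in CPM (vertical axis, from 0) in each brain and uterus library, numbered by replicate, with TMM scaling on the left and library totals alone on the right; bars give mean ± SD over 4 libraries. Brain libraries lie above all uterine libraries on the left, and uterus library 2 reaches into the brain range on the right.

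Relative to brain, neuron markers were much lower in uterus than Penk. The uterus held 0.0160 to 6.49% of the brain level for 10 neuron markers (median 0.307%), with Gap43, a growth cone gene, highest and Nefl, a neurofilament gene, lowest. For 8 markers of striatal projection neurons, a brain cell type rich in Penk or Pdyn, it held 0.0684 to 16.9% (median 0.791%), with the adenosine receptor gene Adora2a highest. All 18 of these genes had a lower uterine percentage than Penk. Some low percentages rest on few uterine counts, with 12 for Nefl, 2 for Drd2 and 6 for Tac1. The counts of Drd2 and Tac1 all lay in uterus library 4. Within uterus, the summed neuron markers were 29.0, 22.9, 28.2 and 38.3 CPM in libraries 1 to 4. The summed striatal markers were 29.0, 29.1, 29.95 and 22.2 CPM in the same libraries. Library 2, with the highest Penk, thus had the lowest sum of neuron markers but not of striatal markers. A relation of either sum to Penk was not tested. No marker of either list was at 0 in all uterine libraries.

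**Figure D2:**
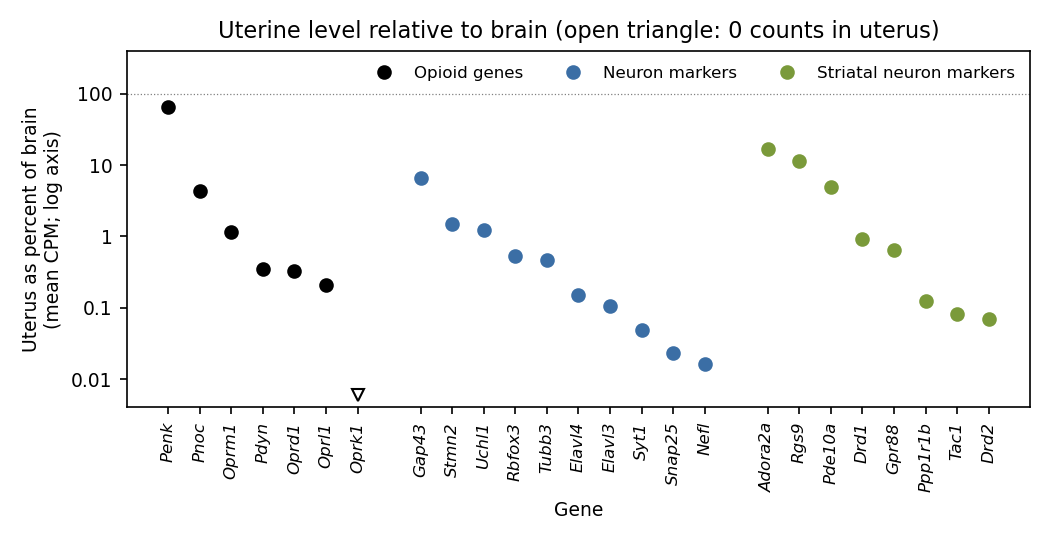
Mean uterine CPM as a percentage of mean brain CPM (vertical log axis) for the 7 opioid genes, 10 neuron markers and 8 striatal neuron markers (horizontal axis); the dotted line marks equal levels and the open triangle a gene with 0 counts in uterus. Penk stands at 65.9%, above every neuronal marker plotted, and the other opioid genes lie at 4.34% or less.

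Summed markers of uterine cell types differed in their order across uterus libraries 1 to 4, in which Penk was 118, 130.4, 85.6 and 88.8 CPM. The 8 stromal markers summed to 12221, 10496, 9994 and 11457 CPM, the 7 epithelial markers to 643, 653, 719 and 793 CPM, and the 6 smooth muscle markers to 6411, 7249, 7244 and 6021 CPM. The 5 endothelial markers summed to 866, 864, 805 and 771 CPM, and the 10 leukocyte marker entries to 322, 299, 330.1 and 265 CPM. Which uterine cells held the Penk RNA was not tested.

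Pdyn (ENSMUSG00000027400, chromosome 2, 129686565 to 129699844, minus strand) was 28.1, 27.6, 27.9 and 24.3 CPM in brain libraries 1 to 4, against 0.101, 0, 0.254 and 0.0233 in uterus libraries 1 to 4. The uterine values rest on 4, 0, 10 and 1 counts. The organs did not overlap, and the log2 fold change was -8.16 ± 0.39 (SE; edgeR adjusted p = 1.1e-08), or -9.29 without uterus library 3, which held most of the uterine counts.

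Pnoc (ENSMUSG00000045731, chromosome 14, 65400673 to 65425472, minus strand) was 6.451, 7.03, 9.19 and 6.48 CPM in brain libraries 1 to 4 and 0.579, 0.188, 0.406 and 0.0932 in uterus libraries 1 to 4. It was the only precursor gene beside Penk with counts in every uterine library (23, 8, 16 and 4). The uterine mean was 4.34% of the brain mean, and the log2 fold change was -4.53 ± 0.39 (SE; edgeR adjusted p = 1.4e-06).

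**Figure D3:**
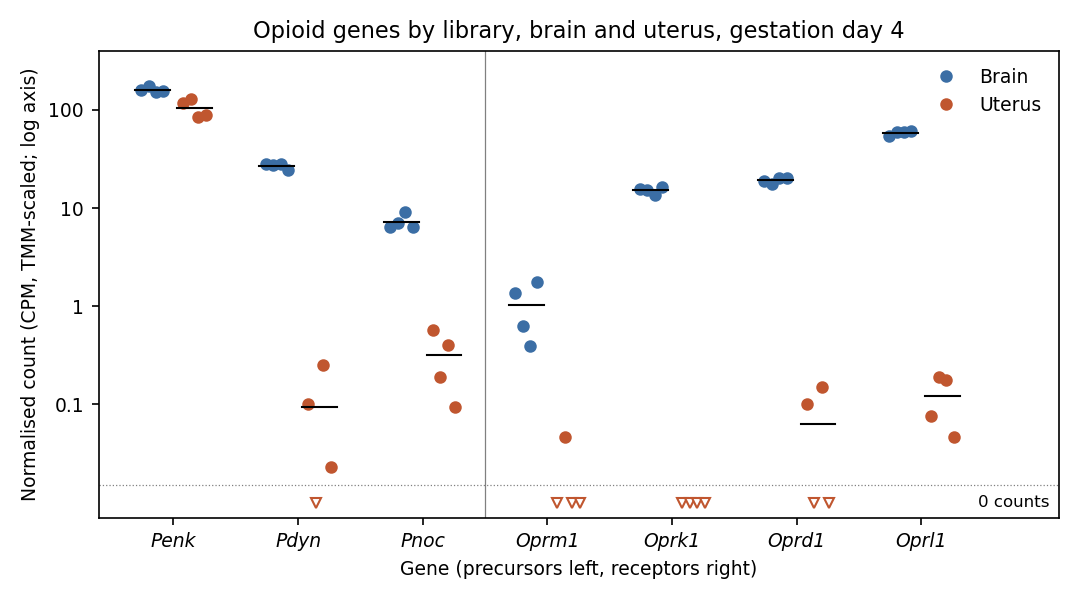
Normalised count in CPM (vertical log axis) of each opioid gene (horizontal axis) in 4 brain and 4 uterus libraries; points are libraries, black bars are means (not drawn for Oprm1 and Oprk1 in uterus, whose means are below the dotted line or 0), and open triangles under the dotted line are libraries with 0 counts. Penk lies between 85.6 and 174 CPM in both organs, and every other gene falls below 1 CPM in all 4 uterine libraries.

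The receptor genes gave 15577 counts over the 4 brain libraries and 32 over the 4 uterine libraries. Oprl1 (ENSMUSG00000027584, chromosome 2, 181715016 to 181720985, plus strand) was the highest of them in brain, at 53.8, 59.6, 59.0 and 60.4 CPM in libraries 1 to 4. In uterus it stood at 0.0755, 0.188, 0.178 and 0.0466 CPM, from 3, 8, 7 and 2 counts. It was the only receptor gene with counts in every uterine library, and the log2 fold change was -8.87 ± 0.18 (SE; edgeR adjusted p = 2.8e-11).

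Oprd1, the delta receptor gene that enkephalins act on (ENSMUSG00000050511, chromosome 4, 132110726 to 132144486, minus strand), was 19.1, 17.5, 20.1 and 20.1 CPM in brain libraries 1 to 4. Uterus libraries 1 and 3 held 4 and 6 counts (0.101 and 0.152 CPM), and libraries 2 and 4 held 0. The log2 fold change was -8.23 ± 0.41 (SE; edgeR adjusted p = 1.5e-08), or -9.10 without uterus library 3. Of the libraries with 0 Oprd1 counts, library 2 had the highest uterine Penk (130.4 CPM) and library 4 a low one (88.8 CPM). These counts are too few to relate the genes across libraries, and no relation was tested.

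Oprk1, the dynorphin receptor gene (ENSMUSG00000025905, chromosome 1, 5588466 to 5606131, plus strand), was 15.5, 15.4, 13.7 and 16.6 CPM in brain libraries 1 to 4 and had 0 counts in all 4 uterine libraries. Against 3 counts over those libraries together, brain was at least 838-fold higher (edgeR adjusted p = 1.4e-08).

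Oprm1, the mu receptor gene (ENSMUSG00000000766, chromosome 10, 6758506 to 7038198, plus strand), was low and uneven in brain, at 1.35, 0.623, 0.393 and 1.75 CPM in libraries 1 to 4, from 50, 27, 17 and 74 counts. Its coefficient of variation over brain libraries was 61.3%, against 5.16 to 17.8% for the other 6 genes. The uterus held 2 counts, both in library 2, and the ratio of brain to uterus was 83.3 (exact Poisson 95% interval 22.7 to 693; edgeR adjusted p = 8.3e-05). The model's log2 fold change was -6.08, or -8.40 without uterus library 2, and depends on the prior count. Oprm1 has 31 annotated transcripts, and its exons overlap those of Ipcef1 on the other strand over 96 nt. The beta-endorphin precursor gene Pomc, also a mu receptor ligand source, was 1.35, 1.64, 0.947 and 2.51 CPM in the same brain libraries and 0.0761 to 0.583 in uterus (-2.46 ± 0.51, edgeR adjusted p = 0.0010), or -3.06 without uterus library 4.

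Per length, the order of the 7 genes in brain was Penk at 98.1 ± 5.86 RPKM, Oprl1 at 15.5 ± 0.800, Pdyn at 9.34 ± 0.619, Oprd1 at 4.78 ± 0.306, Pnoc at 3.38 ± 0.602, Oprk1 at 1.67 ± 0.129 and Oprm1 at 0.128 ± 0.0785 (SD, n = 4). No neighbours in this order overlapped across libraries. With the longest transcript as the length the order was the same, but Pnoc at 3.38 and Oprk1 at 3.27 RPKM came close and Oprm1 reached 0.425. In uterus the order was Penk at 64.7 ± 13.5 RPKM, then Pnoc at 0.147 ± 0.101, Pdyn at 0.0327 ± 0.0397, Oprl1 at 0.0325 ± 0.0190, Oprd1 at 0.0157 ± 0.0189, Oprm1 at 0.00146 ± 0.00293 and Oprk1 at 0. Only Penk stood apart from its neighbour there, and the other neighbours overlapped.

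Within each library, the share of each gene in the summed precursor level was compared. Penk made up 88.5 ± 1.04% of the summed precursor RPKM in brain (range 87.0 to 89.3%) and 99.7 ± 0.218% in uterus (99.5 to 99.9%). Pdyn made up 8.44 ± 0.541% and 0.0575 ± 0.0757%, and Pnoc 3.06 ± 0.607% and 0.229 ± 0.156% (SD, n = 4). A share within a library does not depend on the scaling between libraries. The organs did not overlap for any of these 3 shares, each with p = 0.0286 by a two-sided exact permutation test, the smallest p that 4 against 4 libraries allow. Adjusted over the 7 precursor and receptor shares it was 0.05, which does not pass a threshold of under 0.05.

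Summed over the 4 receptor genes, the level was 22.1 ± 0.901 RPKM in brain and 0.0497 ± 0.0300 in uterus, while the 3 precursor genes summed to 111 ± 5.94 and 64.9 ± 13.5. In brain Oprl1 made up 70.2 ± 1.59% of the receptor sum, Oprd1 21.6 ± 1.31%, Oprk1 7.57 ± 0.598% and Oprm1 0.579 ± 0.347%. In uterus 2 to 13 receptor counts per library gave Oprl1 shares from 44.6 to 100%, too few to order the receptors. The exact permutation p was 0.8286 for the Oprl1 share, 0.714 for Oprd1 and 1 for Oprm1 (n = 4 each), and 0.0286 for Oprk1, which was at 0 in uterus (adjusted p = 0.967, 0.967, 1 and 0.05).

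The genes with the most similar pattern over the 8 libraries were found by the root mean square difference of centred log2 CPM, among 14549 genes. For Penk they were Rnf150 (91.2 ± 3.46 CPM in brain, 59.4 ± 7.88 in uterus; distance 0.0840), Slc35e4 (23.3 ± 0.970 and 14.98 ± 2.06; 0.0926) and Bbs9 (18.0 ± 1.19 and 11.4 ± 1.94; 0.104). Those nearest to Oprk1 were Lhx1, Vwc2l and Opalin, each with 0 counts in uterus, at distances of 0.0759 to 0.0984. With 0 uterine counts for Oprk1 too, these distances reflect the brain values alone. Brain means were 15.3 CPM for Oprk1 and 15.7, 15.6 and 16.9 CPM for Lhx1, Vwc2l and Opalin. Oprl1 was nearest to Gjb6, Nol4 and Megf10 (0.220 to 0.238), and Pnoc to Dlk1, Abcc12 and Asic4 (0.259 to 0.311). Pcdh20 and Kcnk12 were among the 3 nearest to both Pdyn and Oprd1, with Nkx6-2 beside Pdyn and Cabp7 beside Oprd1 (0.323 to 0.455). Oprm1 was nearest to Rhcg, Slc9a7 and Dgki, at 0.464 to 0.468.

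Genes of precursor processing, which encode cutting and trimming enzymes and their partner proteins, were split. Of 8 processing genes, 5 were higher in brain and 3 in uterus, with a median log2 fold change of -5.53. Over all genes tested, 43.6% were called higher in brain and 43.5% in uterus, the shares to set beside this and the later list counts. Pcsk1 and Pcsk2, the prohormone convertases that cut at pairs of basic residues, were 41.8 ± 5.05 and 322 ± 9.88 CPM in brain and 0.213 ± 0.0752 and 0.164 ± 0.203 in uterus. Pcsk2 had 0 counts in uterus libraries 1 and 3, and its log2 fold change of -10.86 ± 0.37 became -11.87 without uterus library 4. Their partner proteins followed, with Scg5, the Pcsk2 chaperone gene, at 172 ± 8.55 against 0.534 ± 0.208 CPM and Pcsk1n, the Pcsk1 inhibitor gene, at 309 ± 22.7 against 0.2655 ± 0.0830 (both edgeR adjusted p under 0.05).

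Cpe, the carboxypeptidase gene that trims the exposed basic residues, was 2025 ± 22.7 CPM in brain and still 184 ± 20.97 in uterus (-3.46 ± 0.09, edgeR adjusted p = 1.7e-10). The 3 genes higher in uterus were Ctsl, a cysteine protease gene, at 257 ± 16.3 against 113 ± 1.95 CPM, Furin, a convertase gene of the constitutive secretory path, at 75.4 ± 2.87 against 43.9 ± 1.02, and Cpd, a carboxypeptidase gene, at 183 ± 9.27 against 158 ± 3.30. Their log2 fold changes were 1.18 ± 0.05, 0.78 ± 0.05 and 0.21 ± 0.05 (edgeR adjusted p = 9.7e-09, 7.5e-08 and 0.0022).

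Enzymes that break down enkephalins ran the other way. Of 6 genes, 5 had higher levels in uterus and 1 in brain, against 43.5% of all genes tested called higher in uterus, with a median log2 fold change of 0.98. Anpep, the aminopeptidase N gene, was 490, 492, 641 and 859 CPM in uterus libraries 1 to 4 and 5.02 to 6.49 in brain. It was 105-fold higher in uterus by the means, with a log2 fold change of 6.71 ± 0.22 (edgeR adjusted p = 8.2e-10). Mme, the neprilysin gene, was 364, 429, 414 and 622 CPM in uterus libraries 1 to 4 and 19.4 to 23.7 in brain, with a log2 fold change of 4.42 ± 0.17 (edgeR adjusted p = 2.6e-09). Both were highest in uterus library 4, where Penk was 88.8 CPM, the lowest but 1 of the uterine values. In library 3, where Penk was lowest (85.6 CPM), Mme was below its level in library 2, where Penk was highest. A relation of these genes to Penk RNA was not tested.

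The other breakdown genes differed less. Lnpep, the insulin-regulated aminopeptidase gene, was 45.4 ± 4.13 CPM in uterus and 17.25 ± 7.97 in brain. In the same order, Dpp3, an enkephalin-cutting dipeptidyl peptidase gene, was 54.9 ± 2.54 and 37.4 ± 1.96 CPM, and Ace 46.4 ± 6.40 and 34.1 ± 2.75. Npepps, the puromycin-sensitive aminopeptidase gene, was higher in brain, at 218 ± 3.36 CPM against 101 ± 2.73 (-1.11 ± 0.04, edgeR adjusted p = 2.2e-09).

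RNA of receptor genes outside the classical family, whose products bind opioid peptides, was present in uterus and in brain. Among 4 related genes, uterus was higher for 2 and brain for 2 (median -0.80). Ackr3, a chemokine scavenger receptor that also takes up opioid peptides, was 44.65 ± 5.21 CPM in uterus and 11.9 ± 1.21 in brain (1.90 ± 0.10, edgeR adjusted p = 3.9e-08). Ogfr, the receptor gene for Met-enkephalin as a growth factor, was 74.7 ± 3.01 and 41.1 ± 0.884 CPM (0.86 ± 0.05, edgeR adjusted p = 3.7e-08). Ogfrl1, a gene related to Ogfr by sequence, was higher in brain (-3.00 ± 0.06), as was Pomc.

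Of the 5 inhibitory G protein genes, Gnai2 and Gnai3 were higher in uterus, at 299 ± 12.2 and 192 ± 11.2 CPM against 167 ± 7.25 and 51.4 ± 2.60. The 3 others were higher in brain, with Gnao1, the main G protein alpha subunit gene of neurons, at 723 ± 22.5 against 13.9 ± 1.72 CPM. Of 13 tested genes of receptor desensitization, 10 were higher in brain, 2 in uterus and 1, Grk5 (18.7 against 19.3 CPM), did not pass, with a median of -2.39. The beta-arrestin gene Arrb1 was 444 ± 25.1 CPM in brain and 242 ± 14.3 in uterus (-0.87 ± 0.06). Arrb2 (-0.37 ± 0.08) was called higher in brain but lost its call with upper-quartile (-0.12) or library-size scaling (-0.11), under which Grk5 was called higher in uterus (0.30 in both). Grk6 (0.15 ± 0.05) lost its call with RLE scaling (0.11), and Rgs19, a regulator of G protein signalling, was higher in uterus at 31.97 ± 2.05 against 14.1 ± 0.837 CPM.

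Effector genes were mostly on the brain side. Of 11 channel and cyclase genes, 10 were higher in brain and 1 in uterus, with a median of -7.95. The potassium channel genes that opioid receptors open, Kcnj3, Kcnj6 and Kcnj9, were 130 ± 9.03, 23.6 ± 3.07 and 170 ± 12.6 CPM in brain and 0.515 ± 0.293, 0.0615 ± 0.0468 and 0.134 ± 0.0448 in uterus. Kcnj5 had 0 counts in uterus and was at least 132-fold higher in brain. The exception was Adcy6, an adenylyl cyclase gene, at 138 ± 8.47 CPM in uterus and 72.0 ± 4.89 in brain (0.93 ± 0.06, edgeR adjusted p = 2.2e-07).

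Of 7 genes for receptor trafficking and partners, 4 were higher in brain and 3 in uterus (median -3.07). Rtp4, a transporter protein gene for mu and delta receptors, was 22.8 ± 2.87 CPM in uterus and 2.42 ± 0.273 in brain (3.23 ± 0.13, edgeR adjusted p = 3.6e-09). The filamin gene Flna, whose product binds the mu receptor, was 2652 ± 149 and 158 ± 9.75 CPM. Gprasp1, which encodes a receptor-sorting protein, reached 862 ± 24.4 CPM in brain against 103 ± 9.48 in uterus, and Gpr139, an orphan receptor gene known to oppose mu receptor signalling, had 0 counts in uterus and was at least 369-fold higher in brain.

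**Figure D4:**
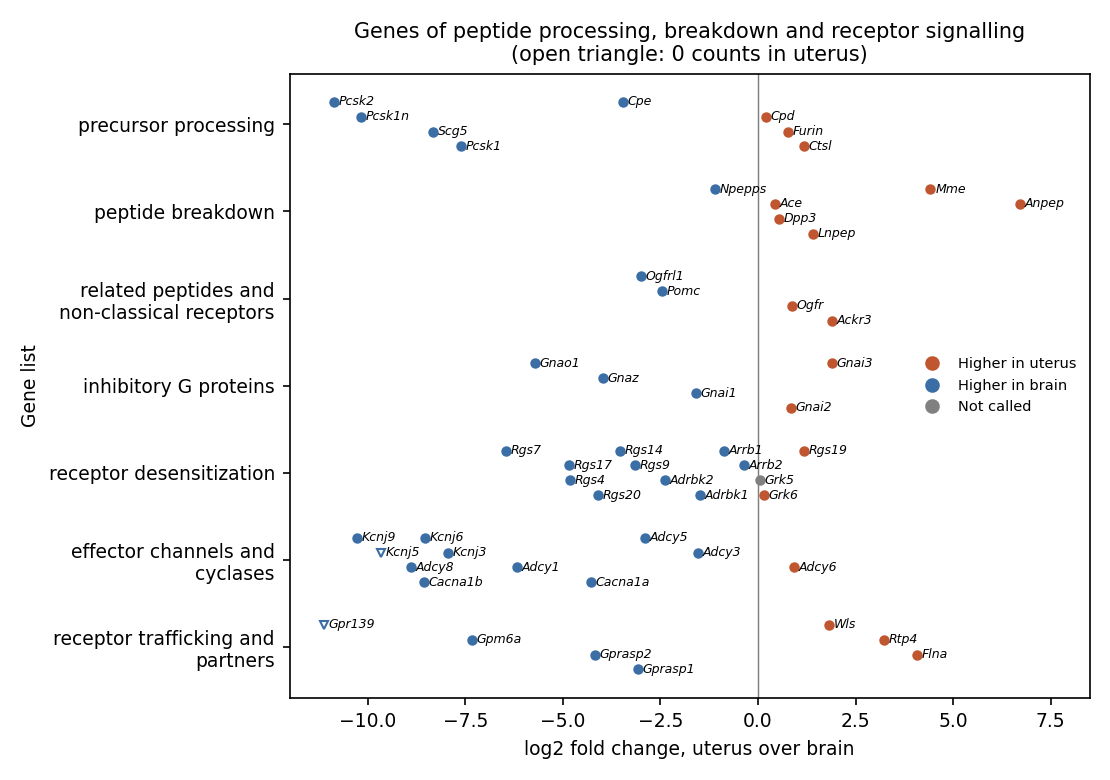
Log2 fold change of uterus over brain (horizontal axis) for each gene of 7 lists (vertical axis), coloured by the edgeR call; points are spread vertically only to separate labels, and open triangles are genes with 0 counts in uterus, whose fitted value is no bound. Anpep and Mme lie farthest toward uterus and Gpr139 and Pcsk2 farthest toward brain.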

How the data were processed

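Whole brain and whole uterus gave 4 libraries each, made per the labels with a stranded kit that removes ribosomal RNA. Per the submitters' processing notes, FastQC, HISAT2 2.0.3, featureCounts and edgeR were used on GRCm38.p5. The deposited file holds raw read counts per gene; its annotation release, strand setting and multi-mapping rule were not given in the sources used here.

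Lengths (union of exons) and coordinates came from GENCODE M21 (GRCm38), which held 19808 of the gene identifiers. Organs were compared with edgeR 4.0.16 (quasi-likelihood F test, TMM, filterByExpr, Benjamini-Hochberg over 16074 genes) in R 4.3.3. SE is the absolute log2 estimate over the root of F. Alternatives used limma 3.58.1, DESeq2 1.42.0, other scalings, filters and thresholds, a block, and each library left out. The code was tested on simulated counts. In a search of transcripts for copies (98% identity over 150 nt), A830012C17Rik, which overlaps Penk, was the only match. No libraries were duplicates within sampling noise.

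The members and lists were chosen with earlier results of these data known. Genes named are the 7 members, the pathway and marker lists, overlapping genes, and the 3 genes nearest in pattern to each member with at least 100 counts, among genes of at least 1 CPM in the higher organ (log2 CPM, prior count 2). A further gene chosen for the list of related genes was left out and is not reported here. Grk2 and Grk3 were matched under their older symbols Adrbk1 and Adrbk2. Sample titles number 4 libraries per organ, and p-values set the organ difference against the spread between these libraries.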

Additional observations from a re-analysis of the deposited data

Results flagged for a closer look

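Among 26 sets of 4 libraries compared for a library far from the others, 4 stood out. The limit used flags about 1 in 20 sets of independent, continuous values. Small counts, and shares of a sum, are not such values, so the 4 cannot be set against that rate. Pdyn in brain library 4 was 24.3 CPM against 27.6 to 28.1 in the other 3, a gap of 0.858 of the whole range. The Pnoc share of precursor RNA in brain was 3.97% in its highest library and 2.70% in its lowest, and the gap below the highest was 0.896 of the range. Oprm1 in uterus had all its 2 counts in library 2, a gap of 1 of the range, and the Oprm1 share of receptor RNA in uterus, up to 10.5%, was for the same reason also a gap of 1.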

How the results depend on the processing

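All 7 opioid genes were higher in brain under every alternative that tested them, except that Penk (-0.60, adjusted p = 1) did not pass the 2-fold test of edgeR and that Oprm1 was not tested under the filter of 1 CPM in 4 libraries. Over the fits without 1 library, Penk ranged from -0.72 to -0.51, and over the scalings from -0.64 to -0.34. Limma-voom gave -8.84 for Pdyn, -8.91 for Oprd1 and -10.29 for Oprk1. A fit with brain libraries 2 to 4 and uterus libraries 1 to 3, chosen after seeing the data, gave -0.51 for Penk.

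With the 2-fold test, genes called fell to 3781 higher in uterus and 4141 in brain. It left 1 processing, 2 breakdown, 1 related, 1 G protein, 1 desensitization and 0 effector genes higher in uterus. RLE scaling left 1 desensitization gene higher in uterus, and the filter of 1 CPM left 1 related gene higher in brain. The share of receptor RNA, uterus minus brain in percentage points, changed sign without single uterine libraries, from -0.579 to 2.91 for Oprm1, -6.82 to 11.7 for Oprd1 and -6.997 to 11.5 for Oprl1. The uterine shares rest on 2 to 13 receptor counts per library. For Oprm1 all 2 uterine counts lay in library 2. Without that library its uterine share was 0, so the difference was the mean brain share with its sign reversed. The cause of the sign changes of Oprd1 and Oprl1 was not tested. In uterus Pdyn and Oprl1 changed places in the order without library 1 or 3.

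Whether equal numbers mark the same mouse is not known, so the samples were not treated as pairs. Deviations from the organ means correlated at -0.048, 0.002, 0.083 and 0.074 between libraries of the same number. Between libraries of unlike number they ranged from -0.084 to 0.1, so these values cannot decide the pairing. With a replicate block Penk was -0.62 and all 7 genes stayed higher in brain. Depth limits the uterine values of the receptors, which rest on 32 counts in all.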
